A study of Mus musculus with 2 samples.

Results

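The ribosomal protein genes were the 86 genes of the 55487 in the count matrix whose symbols name a cytosolic ribosomal protein. A symbol had to read Rpl or Rps, then digits and at most the ending a, x, l or l1, or had to be Rplp0, Rplp1, Rplp2 or Rpsa. The set holds 33 genes of the small subunit and 53 of the large subunit, 82 of them annotated as protein coding and 4 as pseudogenes (Rps4l, Rps12l1, Rpl32l and Rpl6l). The symbol rule left out, among others, Rps3a1, Rpl36al, Rpl37rt, Rps27rt and Fau, and all symbols that end in -ps and a number. No measured value entered the rule.

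The cells were thymic medullary epithelial cells (mTEC) of NOD, BALB/c and C57BL/6 (B6) mice, females aged 6 weeks with no treatment stated, 2 mice per strain. Thymi were digested, CD45+ cells were depleted with magnets, and Pdpn- CD104- mTEC with low MHC class II were sorted, a gate enriched for mimetic cells, which are thymic epithelial cells that take on the gene programmes of peripheral cell types. All 6 mice were pooled in 1 droplet library and tagged with hashtag antibodies. Of 3447 barcodes, 2527 passed the filters and 1706 were assigned to 1 mouse, of which 1578 fell in 12 epithelial gates built from marker genes, none of them a ribosomal protein gene. These were 229 NOD, 939 BALB/c and 410 B6 cells.

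Depth per mouse was 2259865 and 2274834 unique molecular identifiers (UMIs) in NOD, 6250330 and 9040048 in BALB/c, and 3620980 and 3464152 in B6. All 4 general epithelial markers were detected, with a summed level of 3895 to 5385 CPM per mouse, where CPM is the count scaled to the same total of UMIs in every mouse. The strains differed in makeup. Tuft-gated cells were 8.18% and 8.40% of NOD cells, 31.8% and 32.4% of BALB/c cells, and 56.4% and 44.7% of B6 cells. Immature-gated cells were 28.2% and 16.8% in NOD, 27.3% and 27.6% in BALB/c, and 8.82% and 9.22% in B6, and cycling cells were 10.9% and 7.56%, 1.04% and 2.88%, and 1.47% and 0.971% in the same order of strains. Markers of other cells were detected (11 of 11 myeloid, 7 of 7 B-cell and 9 of 10 thymocyte genes, with Rag1 at 0), at a summed level per mouse of 197 to 559 CPM for myeloid, 41.3 to 680 CPM for B-cell and 33.1 to 78.8 CPM for thymocyte markers.

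A ribosome is built from ribosomal RNA and one copy of most ribosomal proteins, so cells keep the messages of these genes at similar and high levels. Cells that grow or divide make more of them. Their messages start with a C followed by a run of pyrimidines, the terminal oligopyrimidine motif, through which mTOR and LARP1 set how well they are translated. Most mammalian ribosomal protein genes have many processed pseudogenes, copies made from their mRNA, so that a read can match more than one place in the genome.

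Rpl26, a large-subunit protein whose human product also binds p53 mRNA, and its processed pseudogene Gm15772 stood out between strains, Rpl26 with the greatest log2 difference among the 80 genes tested, and the bases at which they differ are shown for that reason. Rpl26 lies on the plus strand at chr11:68901583-68906989 (mm10), and Gm15772 on chromosome 5. The 438 bases of the Gm15772 transcript aligned to bases 48 to 485 of the 526-base Rpl26 transcript with 0 gaps and 2 substitutions, C224T and T335C, counted from base 1 of the Rpl26 transcript with the Rpl26 base first. Both lie in the coding sequence, 302 and 191 bases from the transcript's end. Each substituted base is in capitals within 29 bases of the GENCODE transcript, read 5′ to 3′ on the plus strand. The first Rpl26 stretch spans an intron, with the capital at base 68903187 of chromosome 11, and the second is chr11:68903284-68903312. The Gm15772 stretches are chr5:3236593-3236621 and chr5:3236704-3236732.
Rpl26 at C224T: gttcaggttgttcgCggacactacaaagg
Gm15772 at C224T: gttcaggttgttcgTggacactacaaagg
Rpl26 at T335C: ggcacaaccgtccaTgtgggcatccaccc
Gm15772 at T335C: ggcacaaccgtccaCgtgggcatccaccc

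Start sites of 63 of the 86 genes were in the RefSeq promoter table (GRCm38.p6). The motif searched was a C followed by 4 pyrimidines, within 10 bases either side of the start. On the gene's own strand it was present for 40 of the 63 genes (63.5%), against 33.3% of all 27025 genes of the table, and in 42 of their 75 promoters (56.0%), against 29.7% of all 32851 promoters. On the other strand it was in 14 of the 75 promoters (18.7%), against 33.8% of all. The windows of 30 bases, 15 before and 15 from the start, are given for genes that the results turn on, with the pyrimidine run nearest the start that holds the motif in capitals where one was found. They are chr10:23787195-23787224 (minus) for Rps12, chr3:90213634-90213663 (minus) for Rps27, chr3:130730384-130730413 (minus) for Rpl34, chr17:28328456-28328485 (plus) for Rpl10a, chr9:66946071-66946100 (plus) for Rps27l, chr11:68901551-68901580 (plus) for Rpl26 and chr10:128549154-128549183 (minus) for Rpl41.
Rps12: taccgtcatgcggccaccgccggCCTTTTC
Rps27: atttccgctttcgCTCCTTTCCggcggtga
Rpl34: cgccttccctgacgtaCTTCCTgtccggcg
Rpl10a: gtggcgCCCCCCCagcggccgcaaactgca
Rps27l: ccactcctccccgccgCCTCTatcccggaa
Rpl26: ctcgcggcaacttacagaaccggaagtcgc
Rpl41: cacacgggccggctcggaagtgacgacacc
The Rps12 run is 11 bases long and goes on past its window. Within 10 bases of the start, the Rps27 and Rps27l windows hold a further match upstream, in lower case. The Rpl34 window holds such letters too, but further upstream than the 10 bases searched. The Rpl26 and Rpl41 windows held no match to these letters. Their GENCODE starts, at base 68901583 for Rpl26 and 128549305 for Rpl41, lie outside these windows. The motif was not searched there. Of the second starts the table lists, that of Rpl34 held a run of 13 bases, and those of Rpl10a and Rps27l held no match. Rpl29 is not among the entries used.

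Levels within the set spanned a wide range. Of the 86 genes, 78 averaged above 100 CPM over the 6 mice, the median was 1111 CPM, and the 10 highest gave 24.5% of all ribosomal protein counts. CPM from 3′ UMI counting are not divided by transcript length, since each molecule is counted once at its end. Rpl41, the smallest ribosomal protein, was highest at 5245 and 4658 CPM in NOD, 3524 and 3817 in BALB/c, and 3347 and 3128 in B6. Rps29, Rpl39, Rps24 and Rpl37a came next with means of 2801, 2491, 2371 and 2149 CPM. Neighbours in this order overlapped across mice, since Rps29 ranged from 2130 to 3557 CPM and Rpl39 from 1591 to 3613 CPM.

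At the low end, Rpl7l1, a paralog of the large-subunit gene Rpl7, averaged 59.8 CPM, Rpl13a 94.4 CPM, the annotated pseudogene Rps4l 170 CPM, Rpl29 309 CPM and Rps6, the S6-kinase substrate of the small subunit, 325 CPM. The lowest 6 genes did not pass the count filter of the strain test and are not tested: Rpl32l (1.51 CPM), Rpl6l (1.25), Rpl3l (0.185) and Rpl39l (0.163), with Rps12l1 and Rpl10l at 0 UMIs in every mouse. The remaining 80 were tested. Rpl3l is known from striated muscle, and Rpl10l and Rpl39l from testis. Their parents were high, with 1134 CPM for Rpl3, 849 CPM for Rpl10 and 2491 CPM for Rpl39. Of the paralogs expressed here, Rpl22l1 averaged 448 CPM beside 854 CPM for Rpl22, a gene that mouse αβ T cells need to develop, and Rps27l averaged 453 CPM beside 1835 CPM for Rps27. Small-subunit genes gave 43.4% to 45.1% of ribosomal protein counts in every mouse, so the subunits stayed in nearly the same proportion.

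The share of RNA from ribosomal protein genes differed between gates, and cycling cells had the highest of the 12. Over summed UMIs the share was 18.2% in cycling-gated cells (46 cells), 14.6% in muscle-gated (13, all from BALB/c mice), 14.3% in Aire-stage (41) and 13.4% in immature-gated cells (346). It was 10.1% in keratinocyte-gated (143), 9.0% in collagen VI expressing (247), 7.15% in neuroendocrine-gated (59), 6.58% in tuft-gated (528), 6.38% in microfold-gated (38), 5.89% in enterocyte-hepatocyte-gated (23), 5.01% in ciliated-gated (88) and 4.41% in secretory-gated cells (6). No test was run on these shares. Exact binomial 95% intervals, which cover counting error only, were narrow, the widest being 4.29% to 4.54% for secretory-gated cells.

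**Figure D1:**
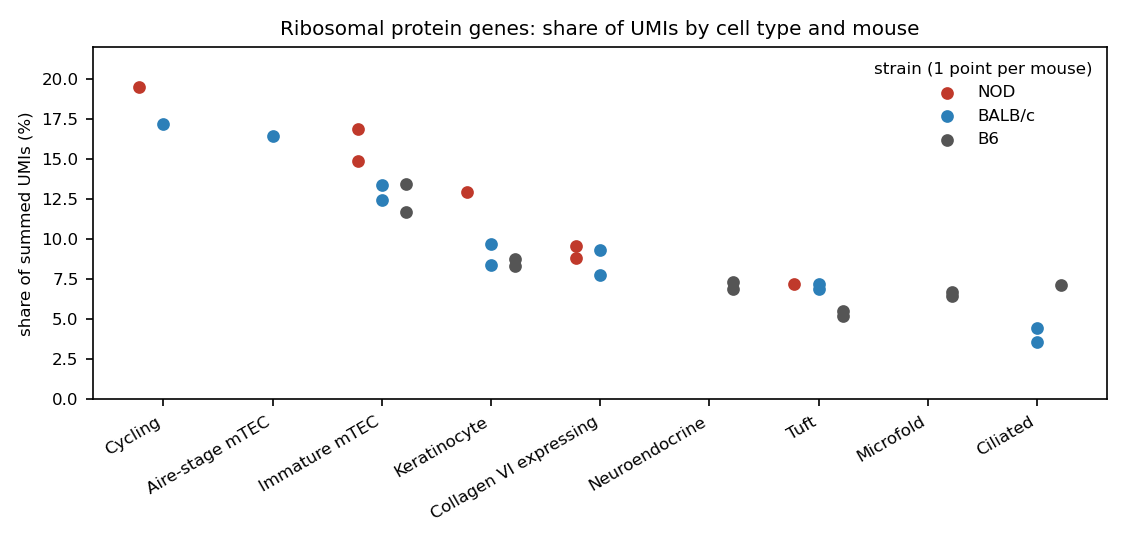
Share of summed UMIs from the 86 ribosomal protein genes (vertical axis, percent) in each cell type gate (horizontal axis), 1 point per mouse with at least 10 cells of the gate, with NOD in red, BALB/c in blue and B6 in grey from left to right. Immature-gated cells lie between 11.7% and 16.9% in the 6 mice, above the 5.23% to 7.24% of tuft-gated cells in 5 mice.

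Across mice, the immature-gated share averaged 13.8% ± 1.86 (SD, n = 6) and the tuft-gated share 6.42% ± 0.960 (n = 5), and the ranges did not overlap. Keratinocyte-gated cells had 9.63% ± 1.94 (n = 5) and collagen VI expressing cells 8.87% ± 0.813 (n = 4), which overlap each other. Ciliated-gated cells had 4.44% and 3.59% in BALB/c and 7.17% in the B6 mouse with enough cells, so this gate overlapped the tuft gate. In sums over cells, fewer cells with high levels and less RNA per cell cannot be told apart.

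The share also moved with depth per cell. Immature-gated cells with at least 5000 UMIs had a median of 10.6% (223 cells), against 3.61% in those with fewer (123 cells, with a median of 7.19% mitochondrial UMIs). With every cell thinned to 5000 UMIs and shallower cells left out, the median was 17.6% in cycling, 14.9% in muscle-gated, 10.8% in immature-gated, 8.0% in keratinocyte-gated, 6.36% in collagen VI expressing, 4.07% in tuft-gated and 3.84% in ciliated-gated cells. That left out 123 immature-gated and 46 tuft-gated cells. Unthinned medians per cell were 18.0% in cycling, 15.1% in muscle-gated, 9.96% in Aire-stage, 7.38% in keratinocyte-gated, 6.82% in neuroendocrine-gated, 6.70% in immature-gated, 5.31% in collagen VI expressing, 3.75% in ciliated-gated and 3.61% in tuft-gated cells. By this measure immature-gated cells stood below keratinocyte-gated and neuroendocrine-gated cells, unlike in the sums.

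To ask which genes followed this order, the 80 genes were compared in each of 5 gates with the mean of the others. Those were the gates with sums from at least 3 mice: immature, keratinocyte, collagen VI expressing, tuft and ciliated. Cycling, muscle-gated and Aire-stage cells, whose shares of summed UMIs were above that of immature-gated cells, did not enter. The fit used 23 sums of 1 mouse and 1 gate with at least 10 cells, the mouse as a block. It was edgeR's quasi-likelihood test with Benjamini-Hochberg adjustment over 11368 genes. A gene is called at an adjusted p under 0.05. In immature-gated cells, 76 of the 80 genes rose and 0 fell, with a median log2 difference of 0.94 against -0.01 over all genes tested. Of all genes, 17.8% were called higher and 12.4% lower. At an unadjusted p under 0.05 the number was 77, and DESeq2 also called 76 higher and 0 lower.

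Rps12, a protein of the small-subunit head, had the greatest rise there. Its mean was 2531 ± 217 CPM in immature-gated cells (SD, n = 6), 735 ± 24.8 CPM in tuft-gated cells (n = 5) and 445 ± 147 CPM in ciliated-gated cells (n = 3). In gates outside this fit it was higher, at a mean of 3605 CPM in cycling (2 mice) and 3419 CPM in Aire-stage cells (1 mouse). The log2 difference of immature-gated cells was 1.41 ± 0.13 (SE), with an edgeR adjusted p of 8.65e-08. Rpsa, the laminin receptor protein of the small subunit, followed with 1.38 ± 0.13, and Rpl36a with 1.38 ± 0.14. The 4 genes that did not pass were Rps4l (-0.01), Rps27l (0.20), Rps27 (0.21) and Rpl7l1 (0.41).

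Keratinocyte-gated cells had 40 genes higher and 0 lower, with a median of 0.38 against -0.09 over all genes, of which 24.6% were called higher and 23.5% lower. At an unadjusted p under 0.05 the number was 47, and DESeq2 called 48 higher. Rpl23a, a protein at the exit of the ribosome's peptide tunnel, was highest with 767 ± 88.9 CPM in keratinocyte-gated cells, against 305 ± 27.9 CPM in tuft-gated cells (SD, n = 5 each). Its log2 difference against the mean of the other gates was 1.14 ± 0.12 (SE). Rpl13 (0.98 ± 0.16) and the stalk protein Rplp0 (0.90 ± 0.15) came next. The count was 26 without BALB/c 2 and 23 without NOD 2.

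Tuft-gated cells went the other way, with 59 genes lower and 1 higher, a median of -0.49 against -0.03, and 21.6% of all genes called lower and 24.7% higher. Rps2, a small-subunit protein near the mRNA entry, fell by most, with 507 ± 14.4 CPM in tuft-gated cells (SD, n = 5), against 2036 ± 354 CPM in immature-gated cells (n = 6) and 1188 ± 237 CPM in keratinocyte-gated cells (n = 5). Its log2 difference was -1.2 ± 0.15 (SE), with an edgeR adjusted p of 9.68e-07, beside -1.09 ± 0.17 for Rplp0 and -0.88 ± 0.16 for Rpsa. Rps4l was the 1 gene higher (0.45 ± 0.16). The count was 34 without NOD 2. Rps4l was not called without NOD 2, BALB/c 1 or BALB/c 2, nor by DESeq2.

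Ciliated-gated cells had 64 genes lower and 2 higher, a median of -0.77 against -0.01, and 15.6% of all genes called lower and 22.6% higher. Rps12 (-1.63 ± 0.20), Rps19 (-1.58 ± 0.21), a gene mutated in Diamond-Blackfan anaemia, and Rpl39 (-1.44 ± 0.19) fell by most. The higher genes were Rps27l (1.02 ± 0.24), known as a p53 target, and Rps4l (0.68 ± 0.21). Only 3 sums entered for this gate, and the number of calls was 27 without BALB/c 1 and 25 without BALB/c 2, while without B6 1, 75 genes were lower and 0 higher. A stricter gate also gave 0 higher, with 73 lower.

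Collagen VI expressing cells had 4 genes lower and 0 higher, a median of -0.05 against -0.06, while 17.1% of all genes were called lower and 18.2% higher. At an unadjusted p under 0.05 the number was 6, and DESeq2 called 6 lower. The 4 genes were Rps4l (-0.76 ± 0.20), Rps27l (-0.73 ± 0.23), Rpl41 (-0.59 ± 0.15) and Rplp1 (-0.43 ± 0.15). Without BALB/c 1 no gene was called, and without NOD 1 or NOD 2 the number was 2.

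**Figure D2:**
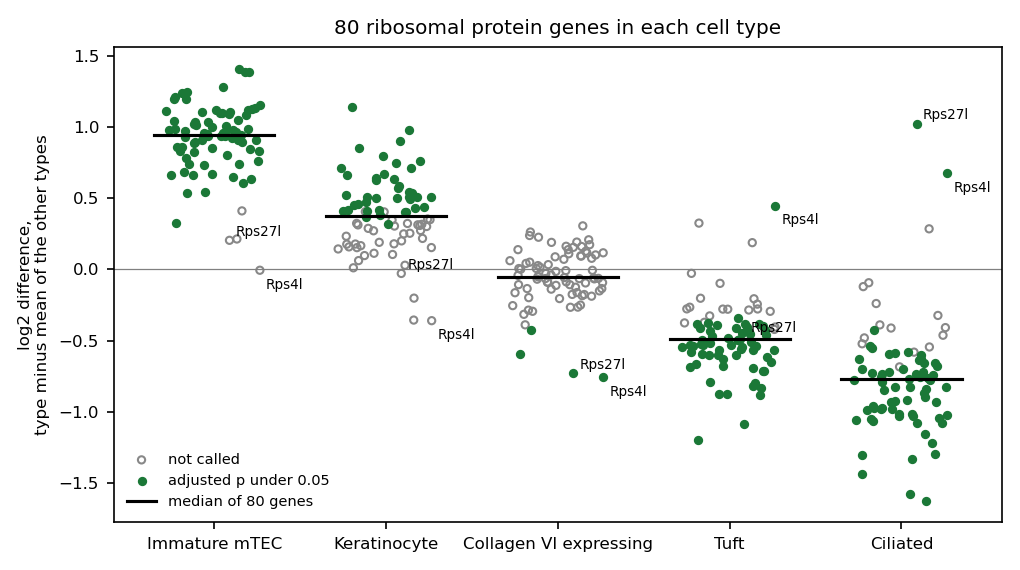
Log2 difference of each of the 80 tested ribosomal protein genes between a cell type gate and the mean of the others among the 5 gates tested (vertical axis), by gate (horizontal axis). Filled points have an edgeR adjusted p under 0.05 and bars are medians. The medians run from 0.94 in immature-gated cells to -0.77 in ciliated-gated cells, and Rps27l and Rps4l lie apart from the other genes in ciliated-gated and collagen VI expressing cells.

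The paralogs did not keep a fixed ratio to their parents. Rps27l averaged 778 ± 503 CPM in ciliated-gated cells (n = 3), beside 1165 ± 227 CPM for Rps27. In tuft-gated cells (n = 5) Rps27l averaged 324 ± 77.4 CPM, beside 1915 ± 263 CPM for Rps27. The ciliated values of Rps27l ran from 328 to 1321 CPM and those of tuft-gated cells from 231 to 405 CPM, so the mice of both gates overlapped. Rps4l averaged 213 ± 73.9 CPM in ciliated-gated, 207 ± 62.4 CPM in tuft-gated and 169 ± 50.8 CPM in immature-gated cells, beside 551 ± 242, 733 ± 166 and 2083 ± 316 CPM of Rps4x in the same gates. Rpl22l1 reached 1059 and 1087 CPM in the cycling sums of 2 mice and averaged 633 ± 151 CPM in immature-gated cells (n = 6), against 300 ± 76.2 CPM in tuft-gated cells (n = 5). Rps4l is annotated as a transcribed processed pseudogene and was not searched for copies, so its counts are uncertain.

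Other genes of the translation machinery were read beside the 80. Of 20 other genes known for messages with the terminal oligopyrimidine motif, all 20 rose in immature-gated cells (median 0.80), among them Npm1 (1.53 ± 0.14) and the elongation factor gene Eef1g (1.11 ± 0.14), while 15 of 20 fell in ciliated-gated cells and 10 of 20 in tuft-gated cells. Ribosome biogenesis genes rose for 13 of 25 in immature-gated cells (median 0.76), and fell for 10 of 25 and rose for 1 in keratinocyte-gated cells (median -0.62), where ribosomal protein genes rose. Of 32 translation factors, 22 rose and 1 fell in immature-gated cells. Mitochondrial ribosomal protein genes ran apart from the cytosolic set in ciliated-gated cells, where 26 of 75 rose and 1 fell (median 0.44), and in collagen VI expressing cells, where 0 rose and 25 fell (median -0.45). The 13 regulators tested went both ways. In immature-gated cells 2 rose and 2 fell, in keratinocyte-gated cells 5 and 1, and in tuft-gated cells 3 and 3. In ciliated-gated cells 2 rose and 6 fell, and in collagen VI expressing cells 2 and 2. Of all genes, 17.8% were called higher and 12.4% lower in immature-gated cells. The shares were 24.6% and 23.5% in keratinocyte-gated, and 24.7% and 21.6% in tuft-gated cells. In ciliated-gated cells they were 22.6% and 15.6%, and in collagen VI expressing cells 18.2% and 17.1%. The regulator counts in immature-gated, tuft-gated and collagen VI expressing cells were near these shares. Among the regulators, Myc, a driver of ribosome production, rose in immature-gated cells (1.09 ± 0.37) and keratinocyte-gated cells (1.43 ± 0.40) and fell in tuft-gated cells (-1.79 ± 0.48). Mdm2, the p53 ligase that free ribosomal proteins bind, rose in ciliated-gated (1.72 ± 0.17) and keratinocyte-gated cells (1.31 ± 0.15) and fell in tuft-gated (-1.50 ± 0.17), immature-gated (-0.78 ± 0.15) and collagen VI expressing cells (-0.75 ± 0.19).

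Between strains, the share of summed UMIs was 13.0% and 11.8% in NOD mice, 8.69% and 9.89% in BALB/c mice, and 7.62% and 7.18% in B6 mice. The strains did not overlap. Makeup moved with it, since NOD mice had the most cycling and the fewest tuft-gated cells. The median mitochondrial share of UMIs per cell ran in the opposite order, at 1.98% and 2.10% in NOD, 2.49% and 2.66% in BALB/c, and 3.32% and 2.82% in B6, and its part was not tested. Within immature-gated cells it was 16.9% and 14.9% in NOD, 12.5% and 13.4% in BALB/c, and 11.7% and 13.4% in B6, where BALB/c and B6 overlapped. As medians per cell in that gate the values were 5.01% and 4.94% in NOD, 5.48% and 7.87% in BALB/c, and 6.30% and 5.45% in B6, so the higher NOD share held for the sums and not for the medians. Within tuft-gated cells it was 7.24% in the 1 NOD mouse with 10 cells, 6.90% and 7.18% in BALB/c, and 5.52% and 5.23% in B6. Within keratinocyte-gated cells it was 12.9% in 1 NOD mouse, 8.36% and 9.70% in BALB/c, and 8.79% and 8.33% in B6.

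Gene by gene, sums of all epithelial cells per mouse were compared in edgeR over 15470 genes, in 1 fit of the 6 mice. The p-values measure the spread between mice, 2 per strain, and the 3 comparisons share mice. NOD against B6 had 72 of 80 genes higher and 1 lower, a median log2 difference of 0.90 against -0.03 over all genes, and 13.6% of all genes called higher and 13.6% lower. NOD against BALB/c had 44 higher and 0 lower, a median of 0.54 against -0.02, with 3.91% of all genes higher and 5.04% lower. BALB/c against B6 had 8 higher and 4 lower, a median of 0.35 against 0.01, with 5.29% of all genes higher and 5.22% lower.

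The number of calls rested on few mice in 2 of these comparisons. At an unadjusted p under 0.05 it was 74, 75 and 54 of the 80 genes in the same order, and DESeq2 called 73, 71 and 30. For NOD against BALB/c the number was 5 without B6 1 or B6 2, 1 without BALB/c 1, 2 without BALB/c 2 or NOD 1, and 20 without NOD 2. For BALB/c against B6 it was 2 without any 1 of the 4 mice compared. Groups did not overlap for 79 of the 80 genes between NOD and B6 (75 all higher, 4 all lower), for 79 between NOD and BALB/c (76 and 3) and for 73 between BALB/c and B6 (68 and 5). With 2 mice per strain most genes separate in this way: of all 15470 genes, 4289 were all higher and 5994 all lower between NOD and B6, 3265 and 5841 between NOD and BALB/c, and 5093 and 4438 between BALB/c and B6.

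With the cell type gate as a term, in limma voom over 25 sums of 6 gates and 9041 genes, the difference was smaller. NOD against B6 then had 35 higher and 4 lower (median 0.41 against -0.01), with 6.21% of all genes called higher and 5.24% lower. NOD against BALB/c had 36 higher and 1 lower (0.38 against -0.00), with 5.05% higher and 4.19% lower. BALB/c against B6 had 0 higher and 5 lower (0.04 against -0.01), with 3.5% higher and 3.07% lower, and 7 genes at an unadjusted p under 0.05.

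**Figure D3:**
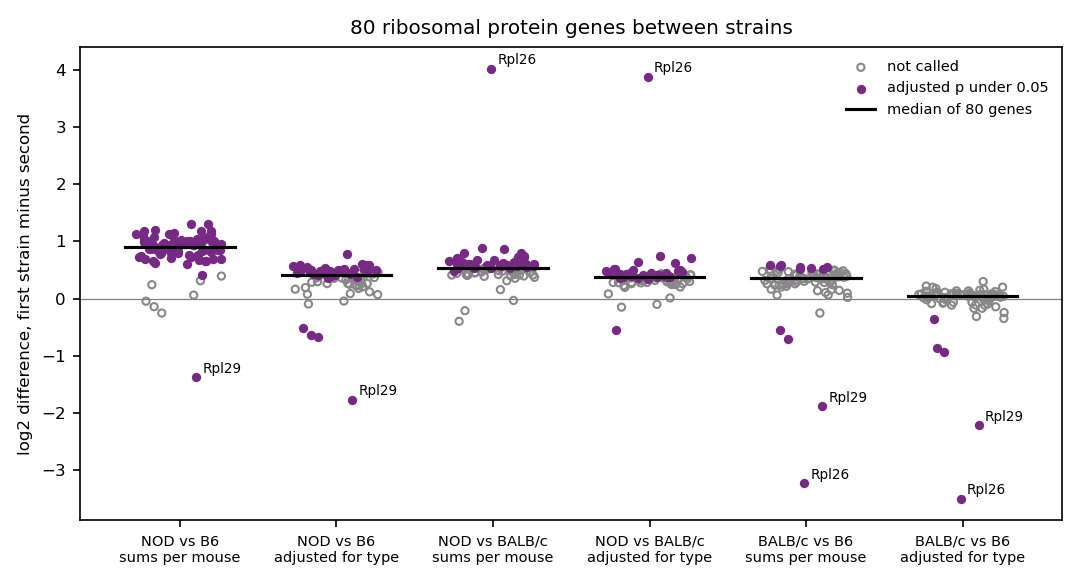
Log2 difference of each of the 80 tested ribosomal protein genes between strains (vertical axis), from sums per mouse (edgeR) and with the cell type gate as a term (limma voom), for each pair of strains (horizontal axis); filled points have an adjusted p under 0.05 and bars are medians. For NOD against B6 the median is 0.90 from sums per mouse and 0.41 with the gate as a term, while Rpl26 and Rpl29 stay far from the other genes.

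Among the genes higher in NOD than in B6, 23 passed with a log2 difference of at least 1. Rpl10a, a protein of the ribosome's L1 stalk, had 1638 and 1516 CPM in NOD, 861 and 983 in BALB/c, and 706 and 646 in B6. The strains did not overlap, and NOD stood apart from both others. The log2 difference was 1.31 ± 0.13 against B6 (edgeR adjusted p = 0.00101) and 0.88 ± 0.13 against BALB/c (adjusted p = 0.0111).

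Rpsa had 2587 and 2168 CPM in NOD, 1361 and 1571 in BALB/c, and 1030 and 1020 in B6. Its log2 difference between NOD and B6 was 1.30 ± 0.14. It was also among the genes most raised in immature-gated cells, which made up more of the cells in NOD than in B6 mice. With the gate as a term it was still called, at 0.52 ± 0.13 (limma adjusted p = 0.0121). Other genes past this size included Rps4x (1.2), Rpl13 (1.19), Rpl36a (1.19), Rpl12 (1.18), Rpl35 (1.15), Rpl32 (1.14), Rps26 (1.13), Rpl39 (1.12), Rpl4 (1.10), Rps15a (1.09), Rps12 (1.05), Rpl6 (1.05), Rpl36 (1.05), Rpl7 (1.04), Rps6 (1.02), Rpl22l1 (1.0), Rpl7a (1.0) and Rps23 (1.0). With the gate as a term, 6 of the 23 lost the call, among them Rpl12, Rpl13, Rpl4, Rps12 and Rps15a. Rps12 then had a log2 difference of 0.22 ± 0.13 (limma adjusted p = 0.287).

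The 7 genes not called between NOD and B6 included Rps27, Rps24, Rpl34, Rpl21 and Rpl35a, and the paralogs Rps4l and Rps27l. With the gate as a term, Rpl21 (-0.67 ± 0.12) and Rpl35a (-0.64 ± 0.15) were called lower in NOD than in B6 (limma adjusted p = 0.000469 and 0.00659), as was Rpl34. Rps27l had 511 and 433 CPM in NOD, 430 and 387 in BALB/c, and 525 and 435 in B6, and the strains overlapped. Rps24, which had 2405 and 2127 CPM in NOD, was highest in BALB/c at 2643 and 2987 CPM, with 2080 and 1984 CPM in B6. No near-identical copy was found for Rps24. Rps24-ps3, a pseudogene named after it, differed beyond 2-fold the same way in every gate compared, for NOD against both other strains. Its part in the Rps24 levels was not tested.

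Rpl26 had 1649 and 1584 CPM in NOD, 97.6 and 115 CPM in BALB/c, against 1015 and 947 CPM in B6. The 2 BALB/c mice were far below all others. The log2 difference was 4.03 ± 0.14 for NOD against BALB/c (edgeR adjusted p = 9.78e-05) and -3.22 ± 0.14 for BALB/c against B6 (0.000189). For NOD against B6 it was 0.81 ± 0.13 (0.00513), beside a median of 0.90 over the 80 genes. With the gate as a term, NOD against B6 was 0.39 ± 0.24 and not called (limma adjusted p = 0.301), beside a median of 0.41.

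Within cell types, Rpl26 was low in BALB/c wherever it could be compared. In tuft-gated cells it had 822 CPM in the 1 NOD mouse, 102 and 80.8 CPM in BALB/c, against 805 and 729 CPM in B6. In keratinocyte-gated cells it had 1823 CPM in the 1 NOD mouse, 62.1 and 138 CPM in BALB/c, against 1022 and 987 CPM in B6. In immature-gated cells it had 2135 and 1929 CPM in NOD, 126 and 115 CPM in BALB/c, against 1264 and 1602 CPM in B6. Over all gates with at least 10 cells of a mouse, the BALB/c sums ran from 30.8 to 304 CPM and those of the other strains from 729 to 2180 CPM.

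Separate edgeR fits in each gate gave -3.12 ± 0.14 in tuft-gated, -3.28 ± 0.42 in keratinocyte-gated and -3.61 ± 0.19 in immature-gated cells for BALB/c against B6, all called. For NOD against BALB/c they gave 4.21 ± 0.19 in immature-gated and 3.9 ± 0.25 in collagen VI expressing cells, both called. In keratinocyte-gated cells the call of Rpl26 was lost without B6 1 or B6 2.

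**Figure D4:**
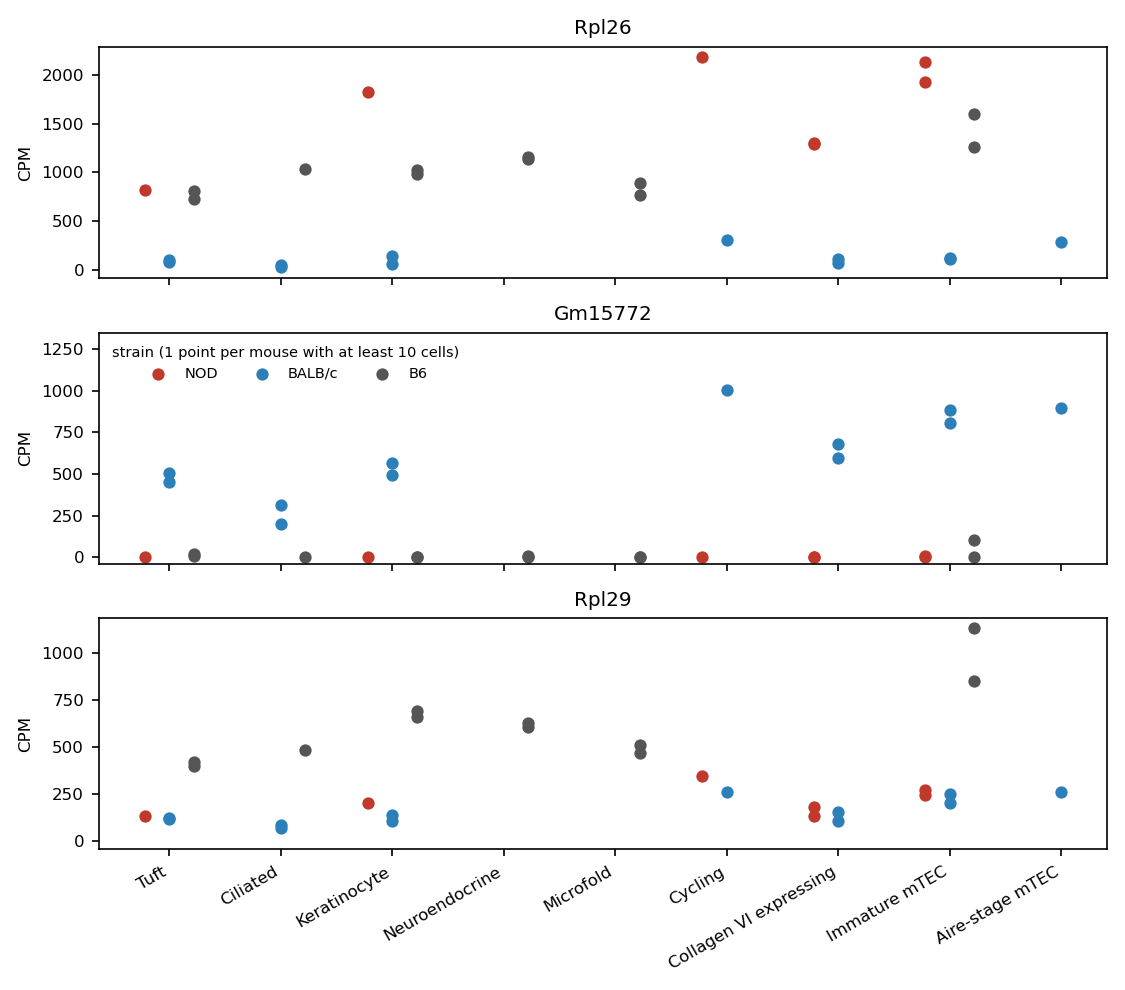
CPM of Rpl26, its copy Gm15772 and Rpl29 (vertical axes) by cell type gate (horizontal axis), 1 point per mouse with at least 10 cells, with NOD in red, BALB/c in blue and B6 in grey from left to right. Rpl26 is low and Gm15772 high in BALB/c in each gate with BALB/c points, and Rpl29 is high in B6 in each gate with B6 points.

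The copy Gm15772 ran the other way. It had 12.8 and 1.76 CPM in NOD, 582 and 650 CPM in BALB/c, against 11.9 and 8.95 CPM in B6. Of the UMIs on Rpl26 and its 7 near-identical copies together, the copies held 0.825% and 0.166% in NOD, 85.7% (exact binomial 95% interval 84.7 to 86.8) and 85.1% (84.2 to 85.9) in BALB/c, and 2.67% and 1.5% in B6. In immature-gated cells Gm15772 had 4.33 and 0 CPM in NOD, 806 and 882 CPM in BALB/c, against 105 and 0 CPM in B6.

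With copies added, Rpl26 had 1663 and 1587 CPM in NOD, 685 and 770 CPM in BALB/c, against 1043 and 961 CPM in B6. The strains still did not overlap, but the difference was much smaller. The log2 difference was then 1.26 ± 0.12 for NOD against BALB/c (edgeR adjusted p = 0.00348) and -0.48 ± 0.12 for BALB/c against B6 (adjusted p = 0.0497). From which of these loci the BALB/c molecules came was not tested, so the level of Rpl26 itself is uncertain.

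Rpl29, a large-subunit protein without which mice are small but live, was called lower in both NOD and BALB/c than in B6. It lies on the plus strand at chr9:106429454-106431568 (mm10). It had 210 and 202 CPM in NOD, 144 and 168 CPM in BALB/c, against 550 and 580 CPM in B6. NOD and BALB/c did not overlap with B6. The log2 difference was -1.37 ± 0.13 for NOD against B6 (edgeR adjusted p = 0.000953), -1.88 ± 0.13 for BALB/c against B6 (0.00103) and 0.51 ± 0.13 for NOD against BALB/c (0.0546, not called).

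Its copies held 15.8% and 13.2% of the summed UMIs in NOD, 15.9% and 15.8% in BALB/c, and 4.91% and 2.76% in B6. With copies added, Rpl29 had 250 and 233 CPM in NOD, 171 and 199 CPM in BALB/c, against 579 and 597 CPM in B6. The log2 difference was then -1.2 ± 0.13 for NOD against B6 and -1.68 ± 0.13 for BALB/c against B6. Adding copies moved this gene less than Rpl26.

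Rpl29 was low in BALB/c against B6 in every gate tested, at -1.78 ± 0.13 in tuft-gated, -2.46 ± 0.28 in keratinocyte-gated and -2.17 ± 0.22 in immature-gated cells. In immature-gated cells it had 245 and 274 CPM in NOD, 203 and 248 CPM in BALB/c, against 853 and 1135 CPM in B6, and NOD against B6 gave -1.84 ± 0.23. In tuft-gated cells it had 131 CPM in the 1 NOD mouse, 125 and 119 CPM in BALB/c, against 419 and 401 CPM in B6.

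**Figure D5:**
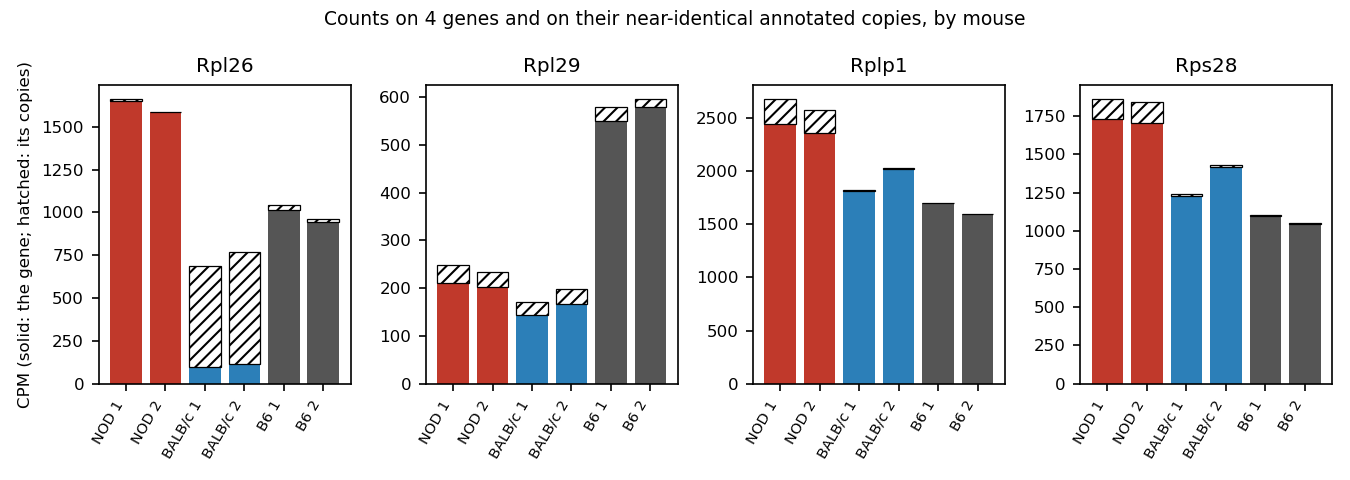
CPM of 4 ribosomal protein genes (solid) and of their near-identical annotated copies (hatched, stacked on top) in each mouse (horizontal axis), with NOD in red, BALB/c in blue and B6 in grey. Copies hold most of the Rpl26 counts in the 2 BALB/c mice (587 and 655 CPM) and part of the Rplp1 and Rps28 counts in the 2 NOD mice.

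Within gates, few other genes were called outside tuft-gated cells, although most log2 differences had 1 sign, such as 77 of 80 above 0 for NOD against BALB/c in immature-gated cells and 71 of 80 in collagen VI expressing cells. BALB/c against B6 in tuft-gated cells had 51 genes higher and 4 lower (median 0.38 against 0.00), with 10.9% of all genes called higher and 10.0% lower. Rpl7 rose by most (0.82 ± 0.12), and the 4 lower were Rpl26, Rpl29, Rpl21 (-0.71 ± 0.12) and Rpl35a (-0.44 ± 0.12). The number of calls was 33 without B6 2 and 26 without BALB/c 2. Depth and mitochondrial share of tuft-gated cells moved with strain, with medians of 13710 and 16212 UMIs and 3.72% and 3.31% mitochondrial UMIs in BALB/c, against 9000 and 10671 UMIs and 5.28% and 5.27% in B6, and their part in this result was not tested. In keratinocyte-gated cells BALB/c against B6 had 0 higher and 2 lower, Rpl26 and Rpl29, with 4 at an unadjusted p under 0.05, and 0.207% of all genes called higher and 0.399% lower. In immature-gated cells it had 0 higher and 3 lower, Rpl26, Rpl29 and Rpl21 (-0.97 ± 0.16), with 6 at an unadjusted p under 0.05, and 0.303% of all genes called higher and 0.648% lower. Tuft-gated sums held more cells than those of the other gates, 92 to 180 per mouse, against 13 to 48 keratinocyte-gated and 18 to 153 immature-gated cells. On simulated data, BALB/c against B6 in immature-gated cells recovered 8.51% of 2-fold rises and 5.56% of 2-fold falls, so most such changes would be missed there.

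NOD against B6 could be tested in immature-gated cells, where Rpl10a rose (0.96 ± 0.16) and Rpl29 fell, with a median of 0.49 against -0.00, 59 genes at an unadjusted p under 0.05, and 0.607% of all genes called higher and 0.676% lower. NOD against BALB/c had 2 higher and 0 lower there, Rpl26 and Rpl10a (0.82 ± 0.16), with a median of 0.45, 61 genes at an unadjusted p under 0.05, and 0.827% of all genes called higher and 0.524% lower. In collagen VI expressing cells NOD against BALB/c had Rpl26 and Rpl10a (0.63 ± 0.22) higher and Rpl34 (-0.68 ± 0.22) lower, with 4.01% of all genes called higher and 2.69% lower.

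Leaving out single mice moved these small counts. Of the 3 calls in collagen VI expressing cells, 1, Rpl26, remained without NOD 1 or NOD 2, and the count was 9 without BALB/c 2. Of the 2 NOD against B6 calls in immature-gated cells, Rpl29 remained without B6 1, B6 2 or NOD 1, and the count was 5 without NOD 2. Of the 2 NOD against BALB/c calls there, Rpl26 remained without any 1 of B6 1, B6 2, BALB/c 1, BALB/c 2 or NOD 1, and the count was 4 without NOD 2.

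Summing the cells of each strain extends the comparison to smaller gates, without a test. For BALB/c against B6, 13 of 4515 genes (0.288%) with at least 20 UMIs in each of 6 gates differed beyond 2-fold the same way in all 6, and Rpl26 and Rpl29 were among them, at log2 differences of -4.68 to -3.11 and -2.71 to -1.75. For NOD against B6, 20 of 5571 genes (0.359%) did so in 4 gates, with Rpl29 among them (-3.62 to -1.49). For NOD against BALB/c, 16 of 6418 genes (0.249%) did so in 6 gates, with Rpl26 among them (3.09 to 4.10). Gm15772 passed this rule in both comparisons that involve BALB/c, and Gm11942, a copy of Rplp1, and Rps24-ps3 in both that involve NOD.

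Rpl21 and Rpl35a were lower in BALB/c against B6 by less. Rpl21 had 793 and 687 CPM in NOD, 533 and 630 CPM in BALB/c, against 961 and 909 CPM in B6, and the log2 difference between BALB/c and B6 was -0.70 ± 0.14 (edgeR adjusted p = 0.0233). Rpl35a had 775 and 732 CPM in NOD, 579 and 643 CPM in BALB/c, against 880 and 883 CPM in B6, with -0.55 ± 0.12 (0.0292). B6 lay above both other strains for both genes. Both calls were lost without any 1 of the 4 mice, with adjusted p-values of 0.0712 to 0.138 for Rpl21 and 0.114 to 0.182 for Rpl35a. With the gate as a term they were -0.93 ± 0.10 and -0.87 ± 0.13 (limma), both called.

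Rpl34 followed strain in another way. It had 929 and 821 CPM in NOD, 1156 and 1315 CPM in BALB/c, against 976 and 939 CPM in B6, so that BALB/c was above both other strains. With the gate as a term it was lower in NOD against BALB/c (-0.55 ± 0.12, limma adjusted p = 0.00485) and against B6 (-0.51 ± 0.15, 0.0246). BALB/c against B6 was not called in the sums (0.35 ± 0.13, edgeR adjusted p = 0.129). Nor was it with the gate as a term (0.04 ± 0.12, limma adjusted p = 0.907). The medians of the 80 genes were also 0.35 and 0.04. Copies held 3.45% and 3.46% of its summed UMIs in NOD, 0.427% and 0.385% in BALB/c, and 0.338% and 0.398% in B6. Their part was not tested.

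Whether a strain difference changed with cell type was tested by an interaction term in limma voom over 20 sums and 12753 genes. No ribosomal protein gene was called for BALB/c against B6 between immature-gated and keratinocyte-gated cells (0.157% of all genes called), between immature-gated and tuft-gated cells (0.604%) or between keratinocyte-gated and tuft-gated cells (0.423%), nor for NOD against BALB/c between collagen VI expressing and immature-gated cells (0.0%). At an unadjusted p under 0.05 the numbers were 2, 20, 15 and 1 of 80. For Rpl26 the difference of BALB/c against B6 was -0.46 in immature-gated minus tuft-gated cells (95% interval -1.10 to 0.18), and for Rpl29 -0.35 (-0.88 to 0.17). On simulated data this test, for BALB/c against B6 in tuft-gated and immature-gated cells, recovered 0% of 2-fold changes. At 4-fold it recovered 54% of rises and 32% of falls. A p that missed the threshold therefore does not show that the differences were alike.

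Near-identical copies were found for 47 of the 82 protein-coding genes, 412 in all, of which 50 passed the count filter. Several followed strain. Gm11942, a copy of the stalk gene Rplp1, had 234 and 213 CPM in NOD, 0.160 and 1.22 CPM in BALB/c, against 0 and 0.866 CPM in B6. Gm10263, a copy of Rps28, had 114 and 127 CPM in NOD, 0.480 and 1.66 CPM in BALB/c, against 0.829 and 1.44 CPM in B6. Rps18-ps6 was low in B6 instead, with 90.7 and 67.3 CPM in NOD, 50.2 and 58.2 CPM in BALB/c, against 6.08 and 2.60 CPM in B6.

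Rpl10a-ps1 matched its parent at 100% identity over 268 of the last 300 bases. It had 87.2 and 84.0 CPM in NOD, 44.6 and 48.9 CPM in BALB/c, against 39.2 and 27.7 CPM in B6, the same order of strains as Rpl10a. With copies added, Rpl10a differed by 1.32 ± 0.13 between NOD and B6. Over the 50 copies, NOD against B6 had 22 higher and 9 lower, of which 7 and 8 were beyond 4-fold. Adding copies to their parents left the number of ribosomal protein genes called at 73 for NOD against B6, 46 for NOD against BALB/c and 11 for BALB/c against B6.

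The genes outside the set whose levels over the 6 mice were most like a member's are given as a description, by Pearson's r of log2 CPM (n = 6). For Rpl26 they were Pdxdc1 (r = 0.995), Snph (0.993) and Nampt (0.992), and for Rpl29 Slc6a7 (0.995), Plagl2 (0.99) and Apobec3 (0.99). For Rpl10a they were Eef1g (0.999), Snu13 (0.999) and Lsm2 (0.998). Apobec3 had 66.8 and 56.3 CPM in NOD, 51.7 and 55.8 CPM in BALB/c, against 194 and 214 CPM in B6. The 6 values of each gene fall into strains, so r mainly reflects 3 strain levels.

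Other translation genes were higher in NOD against B6 as well. In the edgeR fit, 16 of 20 other terminal oligopyrimidine messages rose (median 0.73), 15 of 26 ribosome biogenesis genes (0.72), 19 of 32 translation factors (0.60) and 33 of 78 mitochondrial ribosomal protein genes (0.48), and none of them fell. Of all genes tested, 13.6% were called higher. Hnrnpa1 (1.42 ± 0.15), Npm1 (1.35 ± 0.16) and Eef1g (1.2 ± 0.13) were among them, and Rps3a1, a ribosomal protein gene that the symbol rule left out, rose by 0.78 ± 0.12. Of 13 regulators 2 rose, Myc (1.21 ± 0.19) and Trp53 (1.0 ± 0.12), a count near the 13.6% of all genes. With the gate as a term, 9 of 20, 1 of 22, 7 of 32 and 14 of 75 genes of the same 4 lists rose and 1 of 13 regulators, Eif4ebp1 (1.18 ± 0.38, limma), a repressor of translation under mTOR. NOD against BALB/c gave 6 of 20, 8 of 26, 8 of 32 and 8 of 78, with Myc at 0.89 ± 0.18, and BALB/c against B6 gave 1 of 20, 0 of 26, 0 of 32 and 3 of 78, with Trp53 at 0.58 ± 0.12. The shares of all genes called higher were 6.21% for NOD against B6 with the gate as a term, 3.91% for NOD against BALB/c and 5.29% for BALB/c against B6. The counts 1 of 22, 1 of 13, 0 of 26, 0 of 32, 1 of 20 and 3 of 78 were near or below them. Without cycling cells, the number of ribosomal protein genes called was 72 between NOD and B6, against 73 with them, 15 between NOD and BALB/c, against 44, and 26 between BALB/c and B6, against 12.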

How the data were processed

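Thymic mTEC of 6 pooled mice were measured in 1 droplet library with hashtag antibodies. The deposited matrix holds raw UMI counts per barcode for genes and hashtags; per the submitters' processing notes it was made with Cell Ranger 7.0.0 on mm10. Its annotation release is not given in the sources used here, and coordinates come from GENCODE M21, matched by identifier for all 86 genes. The set of genes and all lists were chosen with earlier results of these data known, and the gate thresholds were set after the data were seen.

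Barcodes with at least 500 genes and under 15% mitochondrial UMIs were kept. A barcode was assigned to a mouse where 1 of the 6 pool hashtags held at least 80% of their UMIs; 821 were not assigned. The second NOD hashtag carries the number of the first in its label, so its number here is only a name. Marker lists gated the cells (mean log level of at least 0.5, at least 3 markers, second list under 0.7 of the first), leaving out 37 ambiguous, 29 ungated and 62 leukocyte-gated cells. No doublet caller was run; mixed hashtags and ambiguous gates stand in for it.

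UMI counts were summed per mouse, or per mouse and gate with at least 10 cells, and tested on all genes with edgeR 4.0.16 (TMM, filterByExpr, robust quasi-likelihood F test, Benjamini-Hochberg). Fits with a term for the gate and interaction tests used limma 3.58.1 (voom, duplicateCorrelation). Each was tested on simulated data, with these shares of 2-fold rises and falls recovered. For NOD against B6 in sums per mouse they were 34.7% and 16.7%. For tuft-gated cells against the other gates they were 94% and 86%. BALB/c against B6 gave 8.51% and 5.56% within immature-gated cells, and 96% and 74.5% with the gate as a term. The interaction test gave 0% and 0%. These shares hold only for the spread that was simulated, and they would be too high for a fit with a greater spread. The edgeR common dispersion, a measure of spread, was 0.0377 in sums per mouse and 0.0723 in the fit that compared gates. The shares for tuft-gated cells and with the gate as a term may therefore be overstated. Near-identical copies are annotated transcripts that matched the last 300 bases of a gene (BLAST 2.17.0) at 95% identity or more, over at least 90 bases and 50% of those searched. The strandedness and handling of multiply matching reads in the authors' counting are not given in the sources used here.

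Named genes are those called with a log2 difference of at least 1 between strains, those called the same way in every gate tested where there were at least 3, the 5 highest and 5 lowest, the 3 most raised and lowered per gate, and paralogs with their parents. This gave 44 genes, more than the intended limit of 30, and all were kept, except that a few are not reported here. Rpl21, Rpl35a, Rpl34, Rps24, Rplp1, Rps28, Rps18 and the copies were named after their values were seen. Replicate numbers were not shown to pair the mice. DESeq2 1.42.0 and HTODemux (Seurat 5.3.0) were among the alternatives.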

Additional observations from a re-analysis of the deposited data

Results flagged for a closer look

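Counts on copies stood out in 1 strain each, outside the set of 86 genes. Gm15772, the copy of Rpl26, had 582 and 650 CPM in the BALB/c mice, above the 11.9 and 8.95 CPM of the B6 mice. Gm11942, the copy of Rplp1, had 234 and 213 CPM in the NOD mice, above the 0 and 0.866 CPM of the B6 mice. Gm10263, the copy of Rps28, had 114 and 127 CPM in the NOD mice, above the 0.829 and 1.44 CPM of the B6 mice.

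Leukocyte-gated barcodes, counted with any hashtag and used in no comparison, held ribosomal protein genes at 9.48% of summed UMIs in the B-cell gate (84 barcodes), 16.7% in the myeloid gate (242) and 19.5% in the thymocyte gate (149). At least 1 Epcam UMI was present in 83.3% of B-cell-gated, 92.6% of myeloid-gated and 9.40% of thymocyte-gated barcodes. The part of epithelial RNA in these shares was not tested.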

How the results depend on the processing

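Between strains, 29 results of named genes were followed through the alternatives, and 0 of these changed direction. Of their 551 values, 537 kept their side of the threshold and 14 lost the call. Those were 6 with the gate as a term, and 2, Rpl21 and Rpl35a, without each of B6 1, B6 2, BALB/c 1 and BALB/c 2. Other named genes did change sign with the gate as a term. Rps19 in NOD against B6 went from 0.60 (called) to -0.04 (not called). Rps2 in BALB/c against B6 went from 0.06 (not called) to -0.36 (limma adjusted p = 0.0392), and Rplp0 from 0.36 to -0.11 (neither called). Counts of genes called moved more. BALB/c against B6 (12) gave 30 with DESeq2, 20 without TMM, 52 without a count filter, 43 at a hashtag share of 60%, 26 with HTODemux, 4 with all assigned cells, 7 under 10% mitochondrial UMIs, 5 with the gate as a term, 26 without cycling cells (added after seeing the data) and 2 to 12 without 1 mouse. NOD against B6 (73) gave 39 with the gate as a term and 57 to 72 without 1 mouse. NOD against BALB/c (44) gave 71 with DESeq2, 19 without TMM, 67 at a hashtag share of 90%, 69 with HTODemux, 20 with all assigned cells, 15 without cycling cells and 1 to 20 without 1 mouse. The replicate block gave 7, 72 and 27 for the 3 comparisons in this order; deviations of same-numbered mice correlated by 0.122 (BALB/c and B6), 0.149 (NOD and B6) and 0.0817 (NOD and BALB/c), so the numbers were not shown to pair them. With the replicate block of the mouse left out, collagen VI expressing cells had 2 calls.

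Among gates, counts without 1 mouse ran from 25 to 75 for ciliated (66), 0 to 4 for collagen VI expressing (4), 23 to 58 for keratinocyte (40), 34 to 57 for tuft (60) and 73 to 77 for immature (76). A stricter gate gave 12 for collagen VI expressing and 72 for keratinocyte; keratinocyte gave 26 without TMM (24 higher, 2 lower) and tuft 36 at a hashtag share of 90%. Within gates the range was 1 to 9 for NOD against BALB/c in collagen VI expressing (3), 1 to 5 for NOD against B6 and 1 to 4 for NOD against BALB/c in immature (2 each), 2 to 3 for BALB/c against B6 in immature (3), 1 to 2 in keratinocyte (2) and 26 to 48 in tuft (55). Leaving out mice was not run for the interaction terms. The UMI share (12.4% in NOD, 9.29% in BALB/c, 7.40% in B6) was 6.21%, 5.80% and 4.37% as a median over cells and 9.40%, 7.57% and 5.87% after thinning, in the same order of strains. The causes were not tested. With 2 mice per strain, a gene not called may still differ.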
